A study of Mus musculus with 6 samples.

Results

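Elastic fibres give the walls of arteries, the valves and the matrix of the heart their recoil. They hold a core of cross-linked elastin on a scaffold of fibrillin microfibrils, and they are assembled outside the cell: fibulins bring elastin to the microfibril, latent TGF-beta binding proteins attach there and help to place it, and lysyl oxidases, which need copper, oxidise lysines so that elastin and collagen chains become cross-linked. In the heart these genes are known mainly from fibroblasts and from the smooth muscle of the coronary vessels. Of the 54532 genes in the deposited table, 10 such genes were selected by symbol: Eln (elastin), Lox, Loxl1 and Loxl2 (lysyl oxidases), Fbn1 (fibrillin 1), Fbln5 and Efemp2 (the fibulins of elastin assembly), Ltbp2 and Ltbp4 (latent TGF-beta binding proteins) and Mfap4 (a microfibril-associated glycoprotein). All 10 were in the table, and all 10 reached the level asked of a tested gene, which was an average of 0.1 FPKM over the 6 libraries.

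Polyadenylated RNA was sequenced from the hearts of 12-week-old mice, 3 of them WT and 3 Mc4r KO, and each mouse gave 1 library. Mc4r encodes the melanocortin-4 receptor, a receptor of the hypothalamus whose loss leads to obesity. The KO mice were homozygous and the WT mice their littermates, from crosses of heterozygotes on a C57B/6/N background, and all were fed standard chow. The knockout is carried by the whole animal, so an effect on the heart and one that passes through body weight cannot be told apart here. The study names male mice and the left ventricle in its discussion, whereas the labels name heart as the tissue and the sample titles say muscle. Values of the 3 libraries of a group are given below in the order of replicates 1, 2 and 3. Between 14691076 and 16047003 reads per library were counted on genes.

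Mc4r itself had 2 reads in WT replicate 3 and 0 in the other 5 libraries, all under the floor of 3 reads used for counting error, so its level does not check the genotype in this tissue. The tissue label was checked with marker genes. Actc1, cardiac actin and the most abundant of the 7 cardiomyocyte markers, ranged from 4568 to 8307 FPKM. FPKM are fragments per kilobase of gene, under the library scaling of the deposited values. Myh4, a myosin of fast skeletal muscle, was listed at 0 in all 6 libraries. Mylpf, the most abundant of the 5 skeletal muscle markers, did not exceed 1.12 FPKM in any library.

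WT replicate 3 stood apart from the other 5 libraries in its atrial and mesothelial markers. Its 5 atrial markers summed to 797.5 FPKM, against 28.7 in WT replicate 1, 95.2 in WT replicate 2 and 136.5, 6.29 and 43.7 in the KO libraries. All 5 were highest there, led by Nppa, the atrial natriuretic peptide, at 314.1 FPKM. Sln was listed at 0 in WT replicate 1 and in Mc4r KO replicates 2 and 3, and Bmp10 at 0 in Mc4r KO replicate 2. The 6 mesothelial markers summed to 30.3 FPKM in WT replicate 3 and to between 5.32 and 8.42 in the others, and Upk3b, the most abundant, reached 11.6 FPKM. The fit was therefore repeated without this library. In other respects it was not the outlier. Its mean correlation with the other libraries was 0.9527, and that of WT replicate 1 was lower, at 0.9488. Mitochondrially encoded genes took 47.1% of its FPKM. That was nearer to the KO libraries (43.0% to 46.6%) than to WT replicates 1 and 2 (59.3% and 57.4%).

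Eln and Lox were higher in each Mc4r KO library than in each WT library, by 2.52 and 1.95 times in the ratio of the group means, while Fbn1, Loxl2 and Ltbp4 differed by less than 1.1 times. Neither Eln nor Lox passed the threshold for a call across all genes in the main limma fit, on log2(FPKM + 0.1) with all 6 libraries, whereas some other fits to the same libraries called them, as given below. Both were hub genes of the study. It picked them from the genes that its own DESeq2 count test called differentially expressed in these same libraries. Their direction is therefore not independent evidence.

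Eln (ENSMUSG00000029675, chromosome 5, 134702593 to 134747323 in mm10, minus strand) measured 1.90, 2.78 and 4.95 FPKM in WT and 9.26, 8.76 and 6.25 FPKM in KO. The lowest KO value lay above the highest WT value, and these 2 values, the nearest between the groups, came from the replicate 3 libraries. The means were 3.21 ± 1.57 FPKM in WT and 8.09 ± 1.61 FPKM in KO (SD, n = 3 each). The FPKM divide by the 8098 bases of all annotated exons, whereas the coding transcript Eln-201 has 37 exons and 3853 bases, which lowers the level of Eln against other genes but not the comparison of the groups. The values rest on 217, 323 and 683 reads in WT and 1164, 1078 and 812 reads in KO. On the log2(FPKM + 0.1) scale the difference was 1.39 (SE 0.33, 95% interval 0.62 to 2.17), with a limma p of 0.0036 and a Benjamini-Hochberg adjusted p of 0.0966.

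Lox (ENSMUSG00000024529, chromosome 18), the founding lysyl oxidase, was a low gene with little spread in WT. It measured 1.11, 0.999 and 1.21 FPKM in WT and 2.21, 2.50 and 1.75 FPKM in KO. No KO value fell into the WT range. The means were 1.10 ± 0.105 FPKM in WT and 2.15 ± 0.381 FPKM in KO (SD, n = 3 each), from 69 to 99 reads in a WT library and 135 to 183 reads in a KO library. The log2 difference was 0.89 (SE 0.17, 95% interval 0.49 to 1.30), with a limma p of 0.0011 and an adjusted p of 0.0688. With a pseudocount of 1 in place of 0.1 the difference was 0.58.

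**Figure D1:**
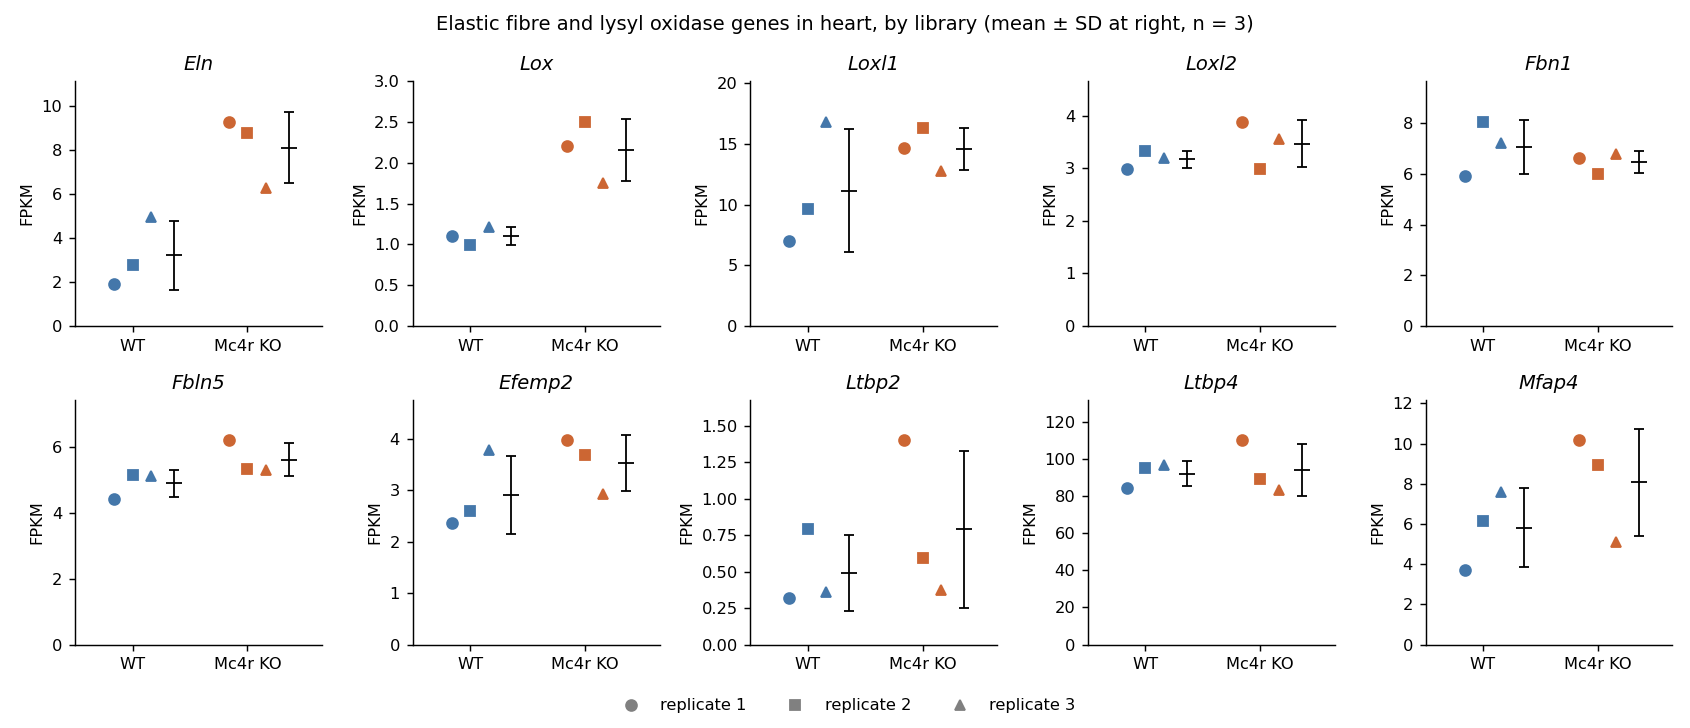
FPKM (vertical axes, from 0) of the 10 genes in each of the 3 WT and 3 Mc4r KO libraries, with the replicate number shown by the marker and the group mean ± SD (n = 3) at the right of each group. The KO points lie above the WT points for Eln, Lox and Fbln5, and overlap them for the other 7 genes.

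Loxl1 (chromosome 9, 58287738 to 58313186), the lysyl oxidase known for its place on elastic fibres, was the most abundant of its family. It measured 7.03, 9.63 and 16.8 FPKM in WT and 14.7, 16.3 and 12.8 FPKM in KO. WT replicate 3 was the highest of all 6 libraries, and the groups overlapped for this reason alone, since WT replicates 1 and 2 lay below every KO library. The log2 difference was 0.47 (SE 0.29, adjusted p = 0.407 with limma). Without WT replicate 3 it was 0.81 (adjusted p = 0.0354), and without WT replicate 1, the lowest library, it was 0.19 (adjusted p = 0.749). Loxl2 (chromosome 14, 69609068 to 69695834), better known for cross-linking collagen IV, measured 2.99, 3.32 and 3.19 FPKM in WT and 3.89, 2.98 and 3.55 FPKM in KO, and its difference was 0.12 with a 95% interval from -0.18 to 0.42, running from 0.04 without Mc4r KO replicate 1 to 0.22 without Mc4r KO replicate 2.

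The lysyl oxidases as a family, with Loxl3 and Loxl4 from the wider list below, summed to 12.4, 15.4 and 22.9 FPKM in WT and 22.6, 23.2 and 19.7 FPKM in KO. Loxl1 made up between 56.9% and 73.3% of this sum in all 6 libraries. Lox made up 8.95%, 6.48% and 5.27% in WT and 9.77%, 10.8% and 8.89% in KO, so its share overlapped between the groups although its level did not. The log2 ratio of Lox to Loxl1 was higher in KO by 0.42, also with overlap (exact two-sided permutation p = 0.4, n = 3 against 3). It was 0.14 without WT replicate 3, 0.71 without WT replicate 1 and 0.15 with a pseudocount of 1.

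Fbn1 (chromosome 2, 125300594 to 125507993), which forms the microfibril, measured 5.93, 8.05 and 7.20 FPKM in WT and 6.62, 5.98 and 6.79 FPKM in KO, a log2 difference of -0.12 with a 95% interval from -0.42 to 0.19. Over the fits that left out 1 library it ran from -0.23 without WT replicate 1 to -0.02 without WT replicate 2. Of its exon bases 20.1% lie opposite a second annotated gene, Gm9913, on the other strand. Whether the counting used strand is not given in the sources used here, so reads of the pair could not be told apart. Eln against Fbn1, core against scaffold, gave FPKM ratios of 0.321, 0.345 and 0.687 in WT and 1.40, 1.47 and 0.920 in KO. All 3 KO ratios lay above all 3 WT ratios, and the log2 ratio was higher in KO by 1.51 (exact two-sided permutation p = 0.1, the smallest that 3 against 3 allows).

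Both fibulins of elastin assembly were a little higher in KO on average. Fbln5 (chromosome 12, 101746565 to 101819055), which binds elastin and lysyl oxidases, measured 4.41, 5.15 and 5.11 FPKM in WT and 6.19, 5.32 and 5.30 FPKM in KO. The groups did not overlap, but the gap between the nearest libraries was small and the log2 difference was 0.19 with a 95% interval from -0.07 to 0.46. It was 0.12 without WT replicate 1 and also without Mc4r KO replicate 1, and close to 0 (0.0015) when scaled to the sum outside the mitochondrial chromosome. Efemp2 (chromosome 19, 5473973 to 5481853), or fibulin 4, which is needed for elastin assembly and binds pro-Lox, measured 2.36, 2.60 and 3.77 FPKM in WT and 3.97, 3.68 and 2.92 FPKM in KO. WT replicate 3 lay among the KO libraries, and the other WT libraries below them. The difference was 0.28 (adjusted p = 0.47) with all libraries and 0.48 (adjusted p = 0.113 with limma) without WT replicate 3, and 0.15 without WT replicate 1.

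Ltbp4 (chromosome 7, 27305136 to 27337692), which helps to place elastin with Fbln5, was by far the most abundant of the 10 genes and made up 61.9% to 74.0% of their summed FPKM. It measured 84.5, 95.3 and 96.7 FPKM in WT and 110.2, 89.5 and 83.3 FPKM in KO. The KO range enclosed the WT range on both sides, and the log2 difference was 0.03 with a 95% interval from -0.26 to 0.32. Its sign turned under several of the other settings, as it did for Loxl2 when values were scaled to the sum outside the mitochondrial chromosome. Ltbp2 (chromosome 12, 84783212 to 84876532), a microfibril protein of low abundance, measured 0.321, 0.791 and 0.359 FPKM in WT and 1.40, 0.595 and 0.373 FPKM in KO. A single library, Mc4r KO replicate 1, carried its difference of 0.51 (95% interval -0.63 to 1.64), which was 0.04 without that library, 0.31 without WT replicate 1, 0.85 without WT replicate 2, 0.88 without Mc4r KO replicate 3 and 0.24 with a pseudocount of 1. Mfap4 (chromosome 11, 61485431 to 61488900), which binds elastin and microfibrils, measured 3.69, 6.16 and 7.61 FPKM in WT and 10.2, 8.94 and 5.09 FPKM in KO, a difference of 0.47 (95% interval -0.31 to 1.24) with Mc4r KO replicate 3 inside the WT range. This difference was 0.69 without WT replicate 3, 0.76 without Mc4r KO replicate 3 and 0.17 without WT replicate 1.

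In order of mean FPKM, WT hearts ran from Ltbp4 (92.2) over Loxl1 (11.2), Fbn1 (7.06), Mfap4 (5.82), Fbln5 (4.89), Eln (3.21), Loxl2 (3.17) and Efemp2 (2.91) to Lox (1.10) and Ltbp2 (0.490). From Loxl1 down to Efemp2 each gene overlapped the next in its range over the 3 libraries, while Ltbp4, Lox and Ltbp2 stood clear of their neighbours. In KO hearts Eln moved from rank 6 to rank 3, at 8.09 FPKM, next to Mfap4 at 8.06 FPKM, which it overlapped. Leaving Ltbp4 aside, Eln made up 6.39%, 7.03% and 9.86% of the summed FPKM of the genes that remained in WT and 15.9%, 15.9% and 13.9% in KO. The FPKM of Eln divide by 8098 bases, against 3853 in its coding transcript. Its ranks and shares therefore hold for that length only.

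Across all genes, 83 of 18035 were called by limma (0.46%), a call being an adjusted p below 0.05 with a log2 difference beyond 0.75 in either direction. Of these, 57 were higher in KO (0.316%) and 26 lower. With values scaled to the sum outside the mitochondrial chromosome the split was 16 higher and 25 lower. None of the 10 genes was called in this fit. Eln and Lox, 2 of the 10 and both higher, had an unadjusted p under 0.05, against 20.9% of all genes, of which 12.0% were higher and 8.83% lower. These shares turned to 4.95% higher and 18.1% lower when values were scaled to the sum outside the mitochondrial chromosome. Each KO library lay above each WT library for 3 of the 10 genes, against 14.1% of all genes, and below for none, against 12.4%. The median log2 difference was 0.37 over the 10 genes and -0.01 over all genes tested. The median over the 10 was 0.16 without WT replicate 1 and also without Mc4r KO replicate 1, 0.18 when scaled to the sum outside the mitochondrial chromosome, 0.23 with a pseudocount of 1 or after centring within bins of GC, and 0.005 with the GC percentage of the reads as a covariate.

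Whether Eln and Lox were called turned on 1 WT library and on the method. Without WT replicate 3 both were called, together with Loxl1. Eln was at 1.75 (adjusted p = 0.0135) and Lox at 0.96 (adjusted p = 0.0318), in a limma fit that called 2.81% of all genes as higher. That fit set WT replicates 1 and 2, the libraries with the highest mitochondrial shares, against the KO libraries. Leaving out any other library called none of the 10, and the difference stayed between 1.08 and 1.75 for Eln and between 0.78 and 1.03 for Lox over all 6 such fits. Limma voom on the recovered reads called both (Eln adjusted p = 0.0405, Lox 0.0388), with 0.882% of all genes called as higher, and weights for each library also called both (Eln 0.0339, Lox 0.0350), with 1.68%. With protein-coding genes alone in the test, Lox was called (adjusted p = 0.0355) and Eln was not (0.0518), with 0.989%.

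**Figure D2:**
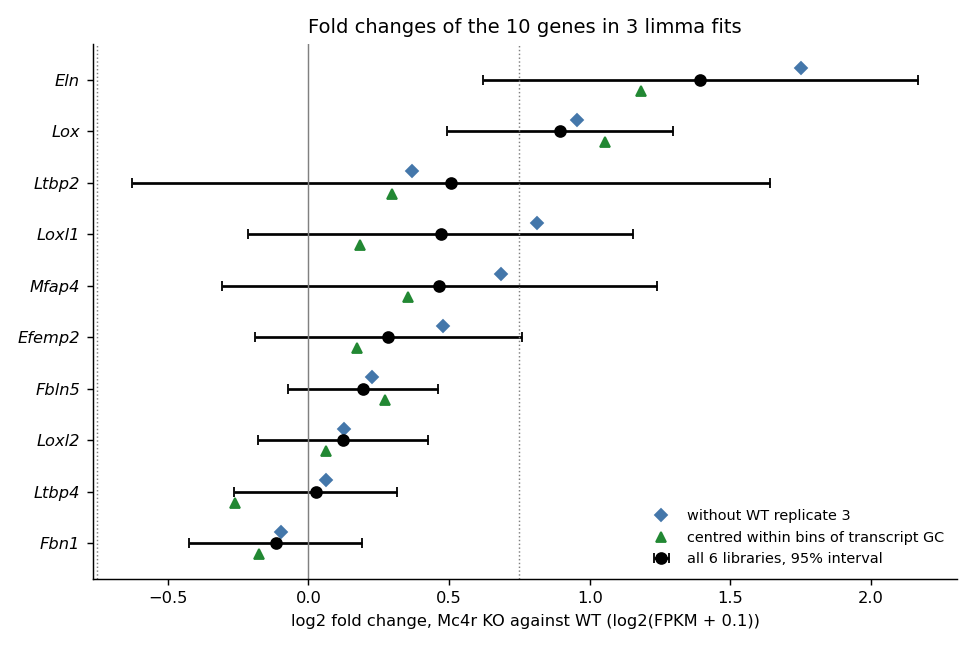
Log2 fold change of Mc4r KO against WT (horizontal axis) for the 10 genes, with black points and 95% intervals from limma on all 6 libraries, blue diamonds without WT replicate 3 and green triangles after centring within bins of transcript GC. Dotted lines mark the fold threshold of 0.75 in each direction. The intervals of Eln and Lox alone lie clear of 0, and Loxl1 passes 0.75 in 1 of the 3 fits, the one without WT replicate 3.

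Several properties of the libraries differed between the groups. Mitochondrially encoded genes took 59.3%, 57.4% and 47.1% of the FPKM in WT and 43.6%, 46.6% and 43.0% in KO, with no overlap. Scaled to the sum outside these genes, the median of all genes shifted from -0.01 to -0.19, Eln was higher by 1.20 and Lox by 0.71, and the difference was 0.28 for Loxl1, 0.27 for Mfap4, 0.34 for Ltbp2, 0.095 for Efemp2 and -0.31 for Fbn1. The fold change across genes also followed the GC content of the transcript. Over 5 equal groups of genes ranked by GC, the median log2 difference was -0.21, -0.10, -0.01, 0.09 and 0.18 from the lowest GC to the highest. Eln, with 58.8% GC, belonged to the last of these groups together with Loxl1, Ltbp2 and Ltbp4, and Lox, with 43.9%, to the first.

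Against genes of like GC, Lox stood further out and Eln less far. When each library was centred within 20 bins of transcript GC, an alternative chosen after seeing the data, Lox was higher by 1.05 (SE 0.18, adjusted p = 0.0605 with limma) and Eln by 1.18 (SE 0.27, adjusted p = 0.104). Loxl1 was then at 0.18 and Ltbp4 at -0.26. With the GC percentage of each library's reads as a covariate, the difference was 0.83 for Lox (adjusted p = 0.348 with limma) and 0.57 for Eln (adjusted p = 0.576). The part of base composition in the differences was not tested beyond these values.

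**Figure D3:**
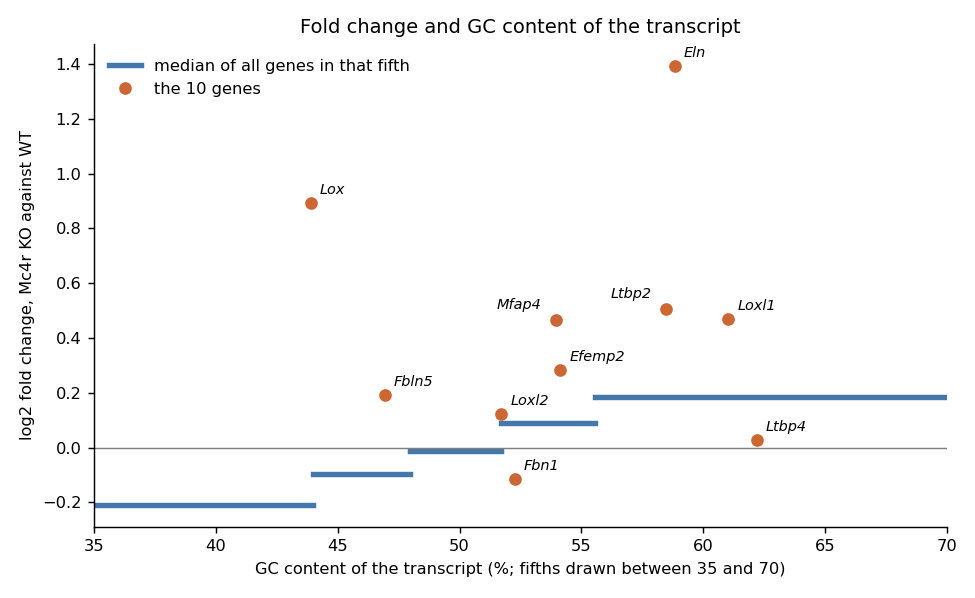
Log2 fold change of Mc4r KO against WT (vertical axis) against the GC content of the transcript in percent (horizontal axis). Blue bars give the median of all tested genes in 5 equal groups ranked by GC, rising from -0.21 to 0.18, and orange points the 10 genes, of which Eln and Lox lie furthest above the bar of their own GC group.

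Smooth muscle cells and fibroblasts are the usual sources of elastin and lysyl oxidases, and in whole tissue more cells of a type and more RNA per cell cannot be told apart. Of the 7 smooth muscle markers none had an unadjusted p under 0.05, and 5 were higher and 2 lower in KO, with a median log2 difference of 0.40. Myh11, the smooth muscle myosin, measured 6.48, 8.85 and 10.5 FPKM in WT and 14.6, 15.8 and 6.05 FPKM in KO. Mc4r KO replicates 1 and 2 lay above all WT libraries and Mc4r KO replicate 3 below them. Of the 7 markers, Myh11, Acta2 and Tagln were lower in Mc4r KO replicate 3 than in every WT library, and the other 4, Cnn1, Smtn, Mylk and Rgs5, were inside the WT range there. The summed markers were 294.7, 290.8 and 234.2 FPKM in WT and 280.5, 300.2 and 204.3 FPKM in KO, led by Rgs5, a gene of pericytes. Tagln stayed at or under 0.364 FPKM, and 67.9% of its exon bases lie under exons of other genes on the opposite strand.

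Of 8 fibroblast markers 7 were lower in KO and 1 higher, and the median log2 difference was -0.32. An unadjusted p under 0.05 was reached by 3, all lower, against 8.83% of all genes lower at that level. Of these, Dcn (42.8% GC) and Lum (41.9%) belonged to the lowest GC group, where 17.6% of genes were lower at that level. Pdgfra (48.1%) belonged to the third group, where 7.85% were. Col1a1, the marker that was higher, had 58.9% GC. Dcn, the proteoglycan decorin, measured 125.3, 123.6 and 109.0 FPKM in WT and 87.0, 77.1 and 83.0 FPKM in KO, a difference of -0.53 (adjusted p = 0.0579). Their sum, led by Gsn, was 624.8, 749.6 and 867.6 FPKM in WT and 720.7, 547.7 and 671.6 FPKM in KO. Among 6 markers of activated fibroblasts, led by Postn, none had an unadjusted p under 0.05 and the median difference was -0.13.

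Set against the mean of the smooth muscle markers, Eln was higher in KO by 1.11 on the log2 scale and Lox by 0.61, and against the fibroblast markers by 1.64 and 1.14. In each of these 4 comparisons all 3 KO libraries lay above all 3 WT libraries (exact two-sided permutation p = 0.1 each, the smallest possible, and 0.12 after Benjamini-Hochberg adjustment over the 6 ratios computed). Leaving out any 1 library kept each of them above 0, with the lowest value 0.42 for Lox against smooth muscle, which was 0.34 with a pseudocount of 1. A ratio of this kind shows unequal change and not which side changed. The ratios were not corrected for transcript GC, which was 58.8% for Eln and 43.9% for Lox, and its part in them was not tested.

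**Figure D4:**
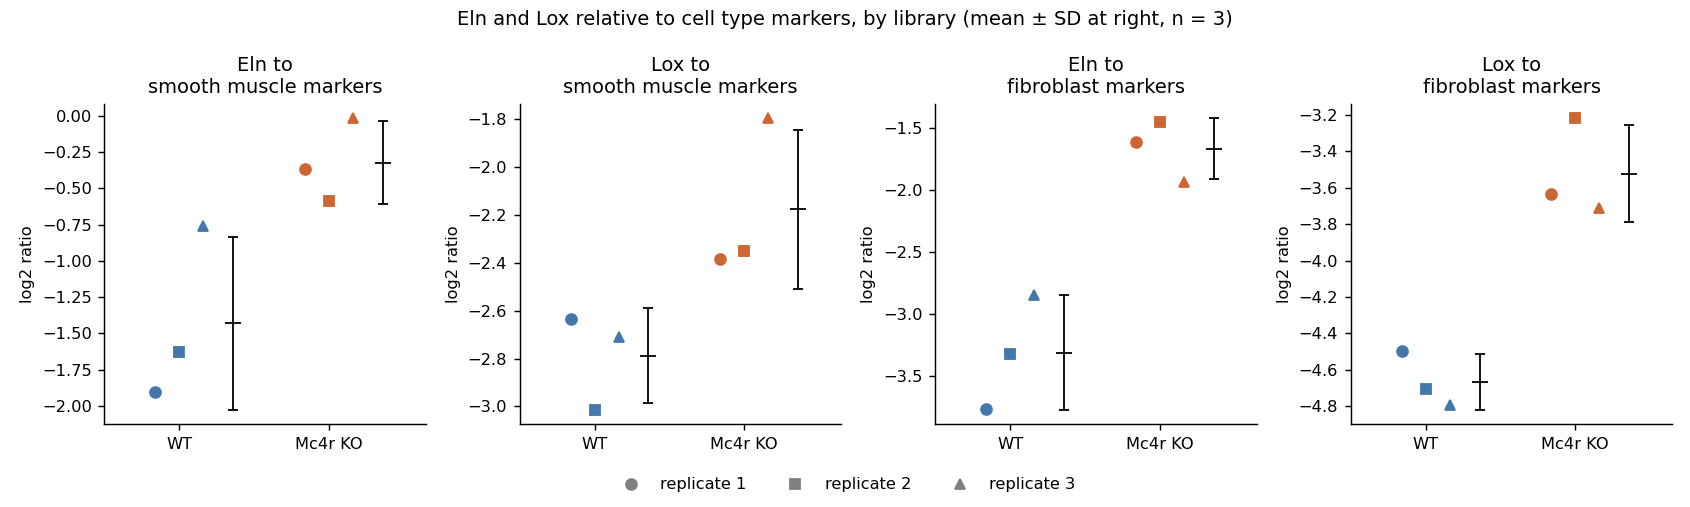
Log2 ratio (vertical axes) of Eln and Lox to the mean of 7 smooth muscle markers or of 8 fibroblast markers in each library, on log2(FPKM + 0.1), with the replicate number shown by the marker and the mean ± SD (n = 3) at the right. In all 4 panels the KO libraries lie above the WT libraries, and Mc4r KO replicate 3 is the highest of the KO libraries against smooth muscle and the lowest of them against fibroblasts.

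Markers of other cell types also differed between libraries. The 5 red cell genes, led by Hbb-bs, summed to 4497, 859.4 and 6344 FPKM in WT and 1651, 663.0 and 620.3 FPKM in KO. Of these 5 genes, 3 were lower in KO at an unadjusted p under 0.05. At that level 8.83% of all genes were lower and 12.0% higher. With values scaled to the sum outside the mitochondrial chromosome these shares were 18.1% and 4.95%. Of 5 macrophage markers 3 were lower at that level, while C1qa, the most abundant, had a difference of 0.63 in the other direction and did not pass. Of 7 cardiomyocyte markers 3 were higher at that level, while by sign alone 6 were higher and 1 lower. Of 6 endothelial markers, led by Cdh5, 1 was higher at that level, and by sign 3 were higher and 3 lower. Of 6 mesothelial markers 1 was lower at that level, and by sign 1 was higher and 5 lower. Fat was close to absent, with Lep listed at 0 in all 6 libraries and Cfd, the most abundant of 5 adipocyte markers, at or under 0.831 FPKM. The part of these cells in the values of Eln and Lox was not tested.

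A wider list of 49 genes of elastic fibre assembly, signalling and turnover, without the 10, was measured next, and 48 passed the filter, Mmp12 being the exception. None was called in the main limma fit, while limma voom called Fbln2 and Timp4 and weights for each library called Timp1 and Timp4, all higher in KO. At an unadjusted p under 0.05, 6 were higher and 8 lower in KO, against 12.0% and 8.83% of all genes, and the other 34 did not pass, with a median log2 difference of 0.07. The sign of this median turned with the scaling outside the mitochondrial chromosome (-0.13, with 4 higher and 10 lower), with the GC covariate (-0.20), after centring within bins of GC (-0.048) and without WT replicate 1 (-0.015) or WT replicate 2 (-0.0041). Without WT replicate 3 the counts were 12 higher and 5 lower, against 15.6% and 12.6% of all genes in that fit, and Timp1 was called. Each KO library lay above each WT library for 8 of the 48 (16.7%) and below for 9 (18.8%), against 14.1% and 12.4% of all genes.

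The fibulins of the wider list parted in direction. Fbln2, a fibulin of the basement membrane and of vessel walls, was the single gene of the list with an adjusted p under 0.05 in the main limma fit. It measured 15.7, 18.9 and 17.5 FPKM in WT and 29.5, 26.0 and 30.7 FPKM in KO, with a clear gap between the groups. Its log2 difference of 0.73 (SE 0.10, adjusted p = 0.0445 with limma) was under the fold threshold. Its adjusted p was 0.0196 without WT replicate 3 and between 0.0956 and 0.163 when any other library was left out. Limma gave an adjusted p above 0.05 for Fbln2 also with a pseudocount of 1 (0.0536), no filter (0.0671), quantile normalization (0.0704), centring within bins of GC (0.0722), scaling outside the mitochondrial chromosome (0.0963), a replicate block (0.128), no trend (0.145) and the GC covariate (0.229). Efemp1, or fibulin 3, measured 8.22, 5.84 and 12.2 FPKM in WT and 2.34, 3.30 and 4.50 FPKM in KO, again without overlap and in the other direction, with a difference of -1.33 (adjusted p = 0.0956) that was -1.06 without WT replicate 3. Fbln1 overlapped between the groups, with a difference of 0.21.

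The promoters of these 2 fibulins, which differed in opposite directions, are shown beside that of Fbn1, the scaffold gene whose groups overlapped. Each line gives the 250 bases before a RefSeq start of the gene (GRCm38.p6), 5′ to 3′ on the strand of the gene. Capitals mark the GC box GGGCGG on either strand. The windows of Fbn1 and Fbln2 lie inside the spans of these genes in the deposited values. For Fbln2 that span runs from 91212455 to 91272540. The windows are chr2:125506439-125506688 on the minus strand for Fbn1, chr6:91212514-91212763 on the plus strand for Fbln2 and chr11:28852955-28853204 on the plus strand for Efemp1.
Fbn1: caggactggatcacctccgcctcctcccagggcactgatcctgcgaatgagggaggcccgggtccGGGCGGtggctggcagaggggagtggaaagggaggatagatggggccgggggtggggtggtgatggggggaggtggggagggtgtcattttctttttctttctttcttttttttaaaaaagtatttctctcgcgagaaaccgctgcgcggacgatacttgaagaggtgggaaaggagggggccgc
Fbln2: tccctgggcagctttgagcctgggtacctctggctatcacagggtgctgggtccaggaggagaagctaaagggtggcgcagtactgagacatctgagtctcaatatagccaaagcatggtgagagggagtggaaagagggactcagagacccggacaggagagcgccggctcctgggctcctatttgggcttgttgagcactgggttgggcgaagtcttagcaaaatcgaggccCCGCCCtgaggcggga
Efemp1: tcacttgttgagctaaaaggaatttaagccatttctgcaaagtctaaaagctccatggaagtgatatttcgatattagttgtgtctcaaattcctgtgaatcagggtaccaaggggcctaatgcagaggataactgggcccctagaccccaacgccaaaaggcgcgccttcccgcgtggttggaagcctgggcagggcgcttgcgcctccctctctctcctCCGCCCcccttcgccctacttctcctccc

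Each of the 3 windows held 1 GC box, and none held the hypoxia response core ACGTG, the Smad palindrome GTCTAGAC, a CArG box or the TATA box TATAAA, all searched on both strands. Among the 32851 promoter windows of the same length, 32.7% held the GC box, 16.6% ACGTG, 0.167% GTCTAGAC, 1.47% a CArG box and 12.4% TATAAA. Promoters were matched for 5 of the 10 genes, Fbn1, Fbln5, Efemp2, Ltbp2 and Ltbp4, with 10 starts between them. ACGTG was found at 1 of these 10 starts, start 1 of Efemp2, and the GC box at 9. These windows are not all separate. Those of starts 2 and 3 of Efemp2 overlap, as do those of starts 1 and 2 of Ltbp4, so some GC boxes are counted more than 1 time.

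Regulators of fibrillin and of matrix breakdown were also spread in both directions. Adamtsl2, which binds fibrillin and Ltbp1, measured 0.816, 1.56 and 1.84 FPKM in WT and 4.36, 2.83 and 2.43 FPKM in KO, a difference of 1.16 (adjusted p = 0.121). Adamtsl3, of the same family, measured 1.64, 1.56 and 1.30 FPKM in WT and 1.04, 0.807 and 1.06 FPKM in KO, a difference of -0.58 (adjusted p = 0.133) that was -0.34 with a pseudocount of 1. Both were free of overlap and neither passed the threshold. Of the 5 protease inhibitors Timp1 and Timp4 were higher and Timp2 lower at an unadjusted p under 0.05. Timp1 rested on 6 to 55 reads a library and its groups overlapped. Its difference of 1.68 was 1.07 with a pseudocount of 1. Timp4, the cardiac inhibitor of metalloproteinases, measured 11.0, 10.7 and 5.86 FPKM in WT and 17.0, 16.2 and 18.5 FPKM in KO, a difference of 0.96 (adjusted p = 0.0996). WT replicate 3 was the lowest library, and without it the difference was 0.67 (adjusted p = 0.0130 with limma). With the GC percentage of the reads as a covariate the differences were 0.57 for Adamtsl2, 0.18 for Timp1 and 1.60 for Timp4, against 1.16, 1.68 and 0.96 without it, and none of the 3 was called.

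**Figure D5:**
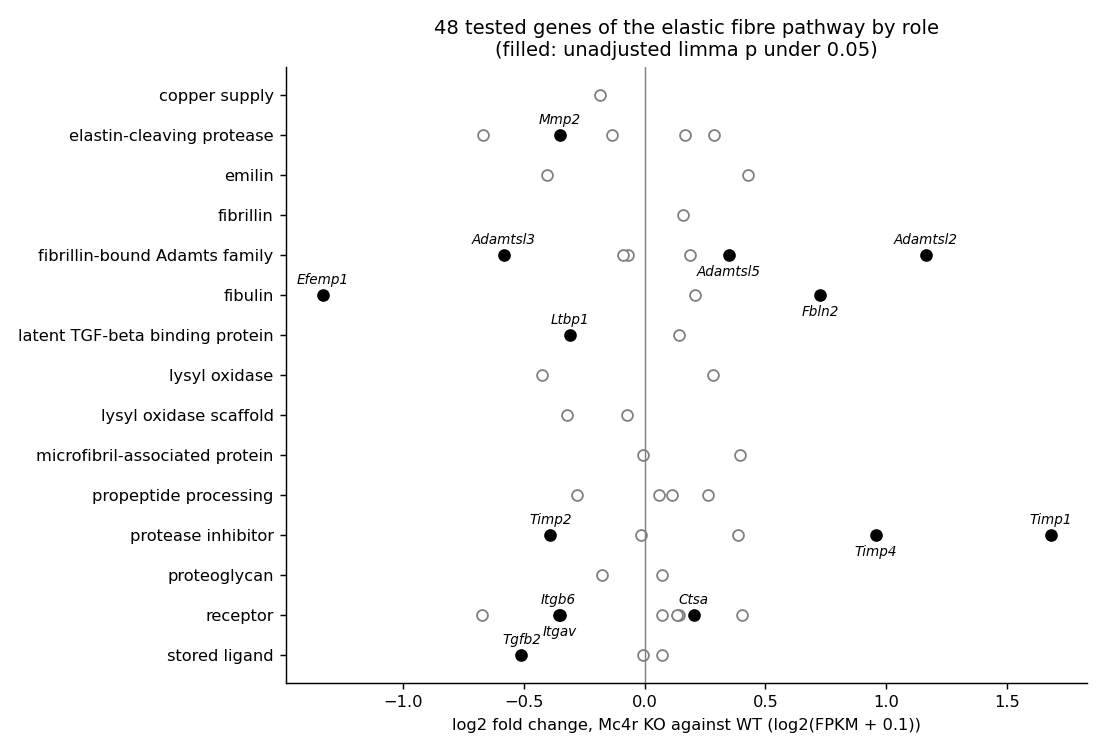
Log2 fold change of Mc4r KO against WT (horizontal axis) of the 48 tested genes of the wider list, 1 point per gene, in rows by role. Filled, named points are the 14 genes with an unadjusted limma p under 0.05, of which 6 lie to the right of 0 and 8 to the left, from Efemp1 at -1.33 to Timp1 at 1.68.

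Of the 3 TGF-beta ligands, which microfibrils store in latent form, Tgfb2 alone was lower at an unadjusted p under 0.05. It measured 1.71, 2.68 and 2.24 FPKM in WT and between 1.48 and 1.52 FPKM in all 3 KO libraries (difference -0.51, adjusted p = 0.170), while Tgfb1 and Tgfb3 overlapped between the groups. Itgb8, an integrin subunit that frees latent TGF-beta, was at 0.423, 0.283 and 0.372 FPKM in WT and 0.262, 0.149 and 0.158 FPKM in KO (difference -0.68, adjusted p = 0.278). At this level the difference depended on the pseudocount, and it was -0.19 with 1 and -0.91 with 0.01. Emilin1, a glycoprotein at the border of elastin and microfibril, measured 3.84, 6.18 and 6.71 FPKM in WT and 7.76, 7.39 and 6.88 FPKM in KO (difference 0.43, adjusted p = 0.286). It was at 0.14 after centring within bins of GC, at 0.02 with the GC percentage of the reads as a covariate, at 0.24 when scaled to the sum outside the mitochondrial chromosome and at 0.19 without WT replicate 1.

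The genes whose profile over the 6 libraries lay closest to that of each gene were sought among the 11297 genes that averaged 1 FPKM or more, by the root mean square difference of centred log2 values. For Eln these were Gm3375 (0.127), Tmem200b (0.168), Gm6311 (0.203), Timm13 (0.222) and Rpl24 (ENSMUSG00000098274, 0.226), of which Gm3375 and Gm6311 are annotated as processed pseudogenes. Tmem200b, a membrane protein gene, measured 2.48, 3.86 and 6.04 FPKM in WT and 9.22, 9.18 and 6.82 FPKM in KO. It was picked for its likeness to Eln, so its pattern is no separate observation. For Lox the closest were Alas1 (0.0954), Pgam1 (0.106), Alpl (0.113), Nudt18 (0.115) and Rbm38 (0.117). Alas1, the first enzyme of haem synthesis outside red cells, measured 21.01, 19.02 and 25.46 FPKM in WT and 36.8, 49.3 and 34.0 FPKM in KO. The 2 sets of 5 share no gene and hold none of the 10.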

How the data were processed

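Libraries were made with the NEBNext Ultra RNA kit. The authors aligned reads to mm10 with HISAT2 2.0.5, counted them with featureCounts and deposited FPKM per gene and library, with the gene length (used here in bases), and no count table was used. FPKM times length came out as whole reads, within 0.1 read, for 100% of values below 10000 reads, which gave the reads per gene back. The deposited scaling was not proportional to the reads on genes. In WT replicate 1, with 14767929 such reads, 1 read per kilobase equalled 0.0709 FPKM. In Mc4r KO replicate 1, with 14691076, it equalled 0.0644 FPKM. Strand use is not given in the sources used here. All 6 columns were mapped to a library by title.

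The main test was limma 3.58.1 (R 4.3.3) on log2(FPKM + 0.1) with an empirical Bayes trend, all 6 libraries and no covariate, for the 18035 genes that averaged 0.1 FPKM or more, with two-sided p-values and Benjamini-Hochberg adjustment. A fold change on this scale understates that of low genes. The p-values measure the spread between 3 mice a group. The fit was tested on simulated data. Ratios used the exact permutation test. The members and lists were chosen with earlier results of these data known. The genes named are the 10 members, any called gene of the wider list, its 4 largest rises and 4 largest falls without overlap between the groups, the 5 closest profiles to Eln and to Lox, and of each marker list the most abundant gene and any at 0, read as 0 in all 6 libraries. Fbln1, Timp1, Timp2, Tgfb1, Tgfb3, Loxl3, Loxl4, Mmp12, Sln, Bmp10, Myh11, Acta2, Cnn1, Smtn, Mylk, Tagln and Dcn were named after their values were seen. GENCODE M21 (99.8% of gene identifiers matched) gave exon overlap and transcript GC, with a GC value for 99.9% of the genes tested, and RefSeq the promoters. Alternatives were 2 other pseudocounts, 2 other filters, 2 other scalings, no trend, library weights, a replicate block, 2 GC corrections, limma voom, protein-coding genes alone, no fold threshold and leaving out each library. The floor of 3 reads covers counting error only. Python 3.11.15, numpy 2.4.6, pandas 2.3.3 and matplotlib 3.10.9 were used.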

Additional observations from a re-analysis of the deposited data

How the results depend on the processing

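The count of 83 genes called over all genes was 44 with a pseudocount of 1, 22 with no filter, 147 with a mean FPKM of at least 1, 41 scaled outside the mitochondrial chromosome, 49 with quantile normalization, 21 without the trend, 435 with library weights, 1 with the GC covariate, 214 with limma voom, 204 with protein-coding genes alone and between 7 and 726 when 1 library was left out, the highest without WT replicate 3. It was within 1.5 times of 83 under the pseudocount of 0.01, with no fold threshold and after centring within bins of GC. Called members numbered 2 with library weights, 2 with limma voom, 1 with protein-coding genes alone and between 0 and 3 when 1 library was left out, and 0 under every other setting tried. With the replicate number as a block 11 genes were called and 0 members. Deviations from the group mean correlated between same-numbered libraries with r of -0.141, 0.007 and -0.082. Libraries of different numbers gave r from -0.0321 to 0.115. With deviations taken from the mean of 3 libraries, these values cannot decide whether the numbers pair the mice.

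Eln and Lox kept their direction under all 19 alternatives fitted, as did Fbn1 and Fbln5, and Ltbp2 under the 18 that kept it. The sign of Ltbp4 turned under 6 of its 19 alternatives. It did so scaled outside the mitochondrial chromosome (-0.17), with quantile normalization (-0.16), with the GC covariate (-0.077) and after centring within bins of GC (-0.26). With 1 library left out the difference ran from -0.092 to 0.110, so only some of those fits turned it. The sign also turned for Loxl2 scaled outside the mitochondrial chromosome (-0.068), and with the GC covariate for Loxl1 (-0.31), Efemp2 (-0.15) and Mfap4 (-0.041). The cause was not tested. The 6 ratios kept their direction under the 8 alternatives run for them, 2 pseudocounts and leaving out each library. Ltbp2 rests on 37 to 178 reads a library, which limits it.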
